A study of Homo sapiens with 32 samples.

Results

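Transcript levels in TMD8 lymphoma cells held for 24 h in the CSK inhibitor CSKi were compared with those in TMD8 cells held for 6 h in the same inhibitor. The comparison covers every feature with a mean log2 value of 5 or more over the 4 TMD8 CSKi libraries at those times, which were 12113 of the 25066 features in the table. The cut falls between SNORA25, just inside at a mean of 5.0002, and CXCL13, just outside at 4.9988. SNORA25 had means of 4.80 at 24 h and 5.20 at 6 h, and CXCL13 had means of 4.31 at 24 h and 5.69 at 6 h. A feature with a mean below 5 at 1 time can thus pass through the other, and its change rests on values that the cut used. Among genes described below, CA9, LRRC32, FAM46C, PPFIA4, LOC100130872, LOC100288986, HBEGF and TNS1 were below 5 at 6 h. TNFRSF18, BAIAP2, RIN2, CCL17 and C11orf41 were below 5 at 24 h. No vehicle library enters this comparison, and the change in DMSO over the same interval was fitted separately and set against it.

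The study treated 2 human diffuse large B-cell lymphoma (DLBCL) lines, TMD8 and DOHH2, in duplicate with CSKi or with the vehicle DMSO for 1, 3, 6 and 24 h, and sequenced the RNA of 32 libraries. The CSKi groups at 24 h and at 6 h are TMD8 cells given 500 nM CSKi, and the DMSO groups at 24 h and at 6 h are TMD8 cells given vehicle, with 2 libraries in each of the 4 groups. Cells of all groups carried an engineered Cas9, and the labels name no guide, clone or second genotype. All were cultured in advanced RPMI with 5% FBS. The titles number the duplicates as biological replicates, and nothing in the labels says that they were separate cultures, so the p-values here measure the spread between these libraries, which may be technical.

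C-terminal Src kinase (CSK) adds a phosphate near the end of each Src family kinase, which folds that kinase into a closed, inactive form. In B cells LYN is the most prominent kinase of this family. It acts both as a starter of B cell receptor signalling, by phosphorylating CD79A and CD79B, and as a brake on it, by phosphorylating inhibitory receptors such as CD22 and CD72, which recruit the phosphatase SHP-1. TMD8 is classed with the activated B cell subtype of DLBCL, in which B cell receptor and NF-kB signalling are chronically active. The question a comparison of 24 h with 6 h addresses is which transcripts go on changing, or turn back, once the early response is past.

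The 4 CSKi libraries held 14309710 and 14018456 mapped reads at 24 h, and 17731630 and 20032600 mapped reads at 6 h. A feature at the cut had a mean of 19.0 reads per library at the least, and the median feature had 506.8 reads. Duplicates correlated across features with r = 0.9943 at 24 h and r = 0.9968 at 6 h, and a 24 h library correlated with a 6 h library with r between 0.9775 and 0.9821. Of the markers of the activated B cell type, BATF was at 11.26 and 11.07 at 24 h, against 11.23 and 11.43 at 6 h on the log2 scale, and PTPN1, SH3BP5 and IRF4 were above 13 in each of the 4 libraries. Of the markers of the germinal centre type, MME was at or near 0 reads, whereas LMO2 (10.51 and 10.42 at 24 h, against 10.31 and 10.25 at 6 h) and S1PR2 (7.93 and 7.97 at 24 h, against 7.52 and 7.63 at 6 h) were detected. Of the T and NK cell markers, 6 of 12, including CD3D, CD3E and CD3G, were at 0 reads in all 4 libraries.

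The gene for the target of the drug, CSK, had log2 values of 14.25 and 14.16 at 24 h, against 14.15 and 14.13 at 6 h. These values differed by 0.06 ± 0.03 (SE from limma, 2 libraries per group, adjusted p = 0.151), which did not pass the test, and without replicate 2 at 24 h the difference was 0.11 (adjusted p = 0.0122). LYN had 14.52 and 14.44 at 24 h, against 14.20 and 14.11 at 6 h, and rose by 0.32 ± 0.04 (limma, adjusted p = 9.31e-08). Both values of LYN at 24 h lay above both values at 6 h.

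At 24 h, 2840 features were higher (23.4% of those tested) and 3033 were lower (25%) than at 6 h under CSKi, by limma with Benjamini-Hochberg adjustment over all features at adjusted p under 0.05. Small changes made up most of these calls, since 4684 of the 5873 were below 1.5-fold. Among changes of at least 1.5-fold the balance was unequal, with 983 features higher (8.12%) and 206 lower (1.70%). Both 24 h values lay above both 6 h values for 4202 features (34.7%), and both lay below for 4376 (36.1%). Scaling to total mapped reads moved the share of calls that were higher to 36.6%, against 48.4% with the deposited scaling, so the split of small changes between higher and lower depends on how libraries are scaled.

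Change over the same interval in DMSO was of a similar extent, with 2486 features higher (20.5%) and 2513 lower (20.7%) at 24 h than at 6 h. At least 1.5-fold changes were 622 higher (5.13%) and 351 lower (2.90%). The 2 arms share no library, and their changes correlated across the 12113 genes with r = 0.582, a description across genes that are not independent of each other. Of the features called under CSKi, 42.5% were called in the same direction in DMSO, and of those called in DMSO, 50% were called in the same direction under CSKi. A further 565 features were called in both arms in opposite directions. The change itself differed between the arms, by the test of the difference of the 2 changes, for 1861 features in the positive direction (15.4%) and 1687 in the negative direction (13.9%). A difference of at least 1.5-fold was called for 579 features in the positive direction (4.78%) and 221 in the negative direction (1.82%). That difference was called for 2538 of the 5873 features called under CSKi (43.2%).

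**Figure D1:**
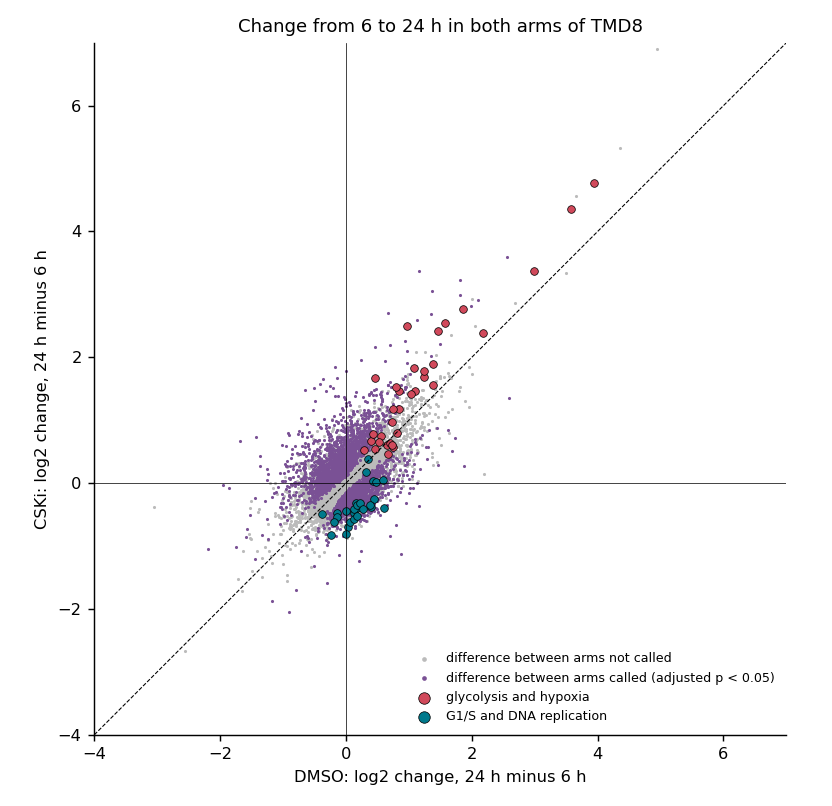
The log2 change from 6 to 24 h under CSKi (y axis) is plotted against that in DMSO (x axis) for the 12113 features, 1 point per feature. Purple points are the features whose change differed between the arms at adjusted p under 0.05, and the dashed line marks equal change. The 33 glycolysis and hypoxia genes (red) lie in the upper right, above 0 in both arms, and most of the 27 G1/S and DNA replication genes (blue) lie below 0 on the CSKi axis, with a median of -0.41, and near or above 0 on the DMSO axis, with a median of 0.17.

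Genes of glucose use and of the response to low oxygen rose steeply under CSKi. Cells that lack oxygen stabilise the transcription factor HIF-1, which turns on glucose carriers, glycolytic enzymes, carbonic anhydrase IX and the regulators that divert pyruvate from mitochondria. Of 35 listed genes of glycolysis and hypoxia 33 passed the cut on low values, and these 33 were each higher at 24 h than at 6 h under CSKi (23.4% of all features were), with a median change of 1.46 on the log2 scale against -0.01 over all features. The 2 values at 24 h lay above the 2 values at 6 h for each of the 33 genes, as for 34.7% of all features.

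PFKFB4, which makes the activator of phosphofructokinase, had log2 values of 11.81 and 11.39 at 24 h, against 7.34 and 7.14 at 6 h, under CSKi. The rise was 4.36 ± 0.15 (limma, adjusted p = 1.28e-17), and in DMSO the same gene had 10.79 and 10.34 at 24 h, against 6.91 and 7.08 at 6 h. Both arms therefore rose steeply, and the rise under CSKi was the larger by 0.78 ± 0.21 (adjusted p = 0.00599). Carbonic anhydrase IX (CA9), which acidifies the outside of the cell, had 9.91 and 9.12 at 24 h, against 4.42 and 5.07 at 6 h, a rise of 4.77 ± 0.30 (adjusted p = 1.91e-12). The lactate exporter SLC16A3 had 10.48 and 9.94 at 24 h, against 6.80 and 6.89 at 6 h, a rise of 3.37 ± 0.18. For neither CA9 nor SLC16A3 was the difference from the change in DMSO called (0.83 and 0.39, adjusted p = 0.147 and 0.289).

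HK2, the hexokinase that traps glucose in the cell, had 13.14 and 13.03 at 24 h, against 11.62 and 11.61 at 6 h, a rise of 1.47 ± 0.04 (limma, adjusted p = 6.29e-19). In DMSO it had 13.03 and 12.98 at 24 h, against 12.17 and 12.15 at 6 h. The 24 h levels of the arms were close, while the 6 h level was lower under CSKi, and the 2 changes differed by 0.62 (adjusted p = 3.76e-08). ALDOC, an aldolase chosen for mention after its values were seen, had the opposite layout. It had 13.13 and 12.71 at 24 h, against 10.48 and 10.38 at 6 h, under CSKi, and 11.77 and 11.07 at 24 h, against 10.41 and 10.48 at 6 h, in DMSO. Its rise was larger under CSKi by 1.52 (adjusted p = 5.25e-07).

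Other members, picked after their values were seen to show the range, ran from PFKM at 0.47 and GAPDH at 0.57, enzymes of glycolysis itself, to the growth factor VEGFA at 1.82, the collagen hydroxylase P4HA1 at 2.54 and the mTOR inhibitor DDIT4 at 2.76. In DMSO 32 of the 33 were higher, with a median of 0.84, and the exception was the glucose carrier SLC2A3 (0.46, adjusted p = 0.0551). The change was larger under CSKi for 19 of the 33 and smaller for 1, GAPDH (-0.17, adjusted p = 0.0231). With scaling to total mapped reads it was larger for 19 and smaller for 3. Both counts moved when 1 library was left out, so they depend on single libraries. Over all features a positive difference was called for 15.4% and a negative one for 13.9%. The median difference of the 33, 0.36 with all libraries, was 0.27 without replicate 2 of DMSO at 24 h. It was 0.24 without replicate 1 of CSKi at 24 h and 0.33 without replicate 2 of CSKi at 6 h. At 24 h replicate 1 was above replicate 2 for 31 of the 33 genes under CSKi and for 32 of the 33 in DMSO, and at 6 h for 28 and 24 of them, so the duplicates differed along this list in both arms. The source of that difference between duplicates was not tested.

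To show what the promoters of this group hold, RefSeq sequences (GRCh38.p14, 250 bases before to 50 after the start of the gene) were searched for the core that HIF-1 recognises, ACGTG or GCGTG, on both strands. ACGTG also lies inside the E box CACGTG. The core was present in 21 of the 29 members with a promoter sequence (72.4%), against 64.2% of the 9392 promoters of tested genes, so that it is common in this window in general. The promoters of CA9 and HK2 are given as a gene with a single match and one with several, with each match on either strand in capitals.
CA9, chr9:35673678-35673977, plus strand: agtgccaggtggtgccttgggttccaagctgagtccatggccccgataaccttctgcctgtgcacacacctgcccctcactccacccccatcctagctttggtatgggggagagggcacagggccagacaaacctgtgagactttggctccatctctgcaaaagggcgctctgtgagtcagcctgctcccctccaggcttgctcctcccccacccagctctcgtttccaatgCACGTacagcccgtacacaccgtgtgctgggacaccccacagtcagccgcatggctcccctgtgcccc
HK2, chr2:74833877-74834176, plus strand: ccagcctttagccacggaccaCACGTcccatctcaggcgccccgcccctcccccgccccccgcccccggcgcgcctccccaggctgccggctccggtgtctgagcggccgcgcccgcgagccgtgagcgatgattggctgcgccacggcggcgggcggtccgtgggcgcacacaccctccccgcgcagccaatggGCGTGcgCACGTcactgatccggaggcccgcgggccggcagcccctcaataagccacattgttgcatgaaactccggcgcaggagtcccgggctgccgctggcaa

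Genes of DNA replication moved the other way. Cells that pass from G1 into S phase raise E2F targets, among them the MCM helicase that opens origins, the polymerase clamp PCNA and the enzymes that make deoxynucleotides. Of 27 tested genes of G1/S and DNA replication, 22 fell under CSKi (25% of all features did) and 1 rose, with a median change of -0.41. In DMSO 18 of the same genes rose and 3 fell, with a median of 0.17, and the change differed between the arms in the negative direction for 24 of the 27 (13.9% of all features). RNA was taken from whole cultures, so fewer cells in a phase and less RNA per cell cannot be told apart.

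PCNA had log2 values of 12.55 and 12.67 at 24 h, against 13.23 and 13.22 at 6 h, under CSKi, and fell by 0.62 ± 0.04 (limma, adjusted p = 6.58e-13). In DMSO it had 13.26 and 13.27 at 24 h, against 13.23 and 13.19 at 6 h, and that difference did not pass the test (0.06, adjusted p = 0.206). CDC45L (CDC45), a part of the replicative helicase, had 10.59 and 10.61 at 24 h, against 11.43 and 11.40 at 6 h, and fell by 0.81 ± 0.05. Only the 2 CSKi libraries at 24 h stood apart for both genes, and the other 6 values lay close together. The changes of PCNA and CDC45L differed between the arms by -0.68 and -0.81 (adjusted p = 5.43e-10 and 3.87e-09).

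The helicase subunit MCM6, named after its values were seen, had 11.63 and 11.56 at 24 h, against 12.33 and 12.26 at 6 h, under CSKi and fell by 0.70 ± 0.05. In DMSO it had 12.26 and 12.34 at 24 h, against 12.31 and 12.24 at 6 h. Also chosen in this way, MCM3 fell by 0.45, MCM7 by 0.47 and the thymidylate synthase TYMS by 0.39. The sole member that rose was CCND2 (0.38), a D cyclin, which rose in DMSO as well (0.34), whereas its relative CCND3 fell under CSKi (-0.39) and rose in DMSO (0.60). E2F1 fell in both arms (-0.49 under CSKi and -0.38 in DMSO), and its difference between arms was not called (adjusted p = 0.247).

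The E2F motif TTTNGCGC, read on both strands, was present in 10 of the 22 members with a RefSeq promoter (45.5%), against 3.2% of the 9392 promoters of tested genes. A match is a description of these letters in this window. The promoters of PCNA and CDC45L (CDC45) had 0 matches. Whether members with a match fell more than members without was not tested. The promoters of the 3 helicase subunits MCM6, MCM3 and MCM7 are given only as examples that hold a match, with matches in capitals. In MCM6 each run of capitals joins matches on both strands.
MCM6, chr2:135876394-135876693, minus strand: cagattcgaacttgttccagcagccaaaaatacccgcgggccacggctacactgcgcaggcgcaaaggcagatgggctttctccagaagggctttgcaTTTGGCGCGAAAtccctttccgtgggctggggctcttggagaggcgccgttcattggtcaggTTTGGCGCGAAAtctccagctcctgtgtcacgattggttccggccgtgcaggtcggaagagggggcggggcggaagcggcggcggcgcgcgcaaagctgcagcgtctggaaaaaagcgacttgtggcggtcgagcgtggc
MCM3, chr6:52284693-52284992, minus strand: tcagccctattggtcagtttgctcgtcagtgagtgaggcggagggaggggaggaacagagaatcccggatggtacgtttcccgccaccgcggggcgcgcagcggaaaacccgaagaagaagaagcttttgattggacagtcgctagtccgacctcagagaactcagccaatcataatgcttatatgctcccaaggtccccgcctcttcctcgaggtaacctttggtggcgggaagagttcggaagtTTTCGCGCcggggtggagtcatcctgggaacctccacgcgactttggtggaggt
MCM7, chr7:100101348-100101647, minus strand: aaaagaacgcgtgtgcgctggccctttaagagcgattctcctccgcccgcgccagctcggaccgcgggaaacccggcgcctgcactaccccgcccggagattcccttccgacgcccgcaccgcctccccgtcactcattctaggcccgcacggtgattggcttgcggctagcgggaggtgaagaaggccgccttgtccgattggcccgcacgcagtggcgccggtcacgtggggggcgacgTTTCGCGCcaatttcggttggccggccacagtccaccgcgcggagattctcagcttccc

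In their changes from 6 to 24 h, G2/M genes, which drive mitosis, separated the arms more by a rise in DMSO than by a fall under CSKi. Of 25 tested, 10 fell and 1 rose under CSKi (25% and 23.4% of all features), with a median of -0.11. In DMSO 24 rose (20.5% of all features), with a median of 0.41. The difference between the arms was called in the negative direction for all 25 (13.9% of all features). The arms also started from different levels. At 6 h the mean was higher under CSKi than in DMSO for 24 of the 25, and at 24 h for 0. These level differences were not tested. The mitotic kinase gene AURKA had 11.17 and 11.22 at 24 h, against 11.47 and 11.49 at 6 h, under CSKi, and 11.52 and 11.55 at 24 h, against 11.31 and 11.37 at 6 h, in DMSO. It fell by 0.29 ± 0.05 under CSKi (limma, adjusted p = 1.51e-05). The proliferation marker MKI67, named after its values were seen, rose in both arms, by 0.15 under CSKi and by 0.37 in DMSO. The count of 10 that fell was 3 without replicate 1 of CSKi at 24 h, 4 without replicate 1 at 6 h and 5 without replicate 2 at 6 h. The mitotic motor KIF11, at -0.30 with all libraries, was at -0.12 without replicate 1 of CSKi at 24 h and was then no longer called (adjusted p = 0.0698).

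Most listed genes for building ribosomes and for respiration fell as well. Over all features, 20.5% rose and 20.7% fell in DMSO, and 13.9% had a negative difference between the arms. In the list of MYC targets and ribosome biogenesis, 19 of 30 fell under CSKi (25% of all features did), with a median of -0.18. Of the others 9 were not called and 2 rose under CSKi. In DMSO 11 of the 30 rose and 4 fell. The mean was higher under CSKi than in DMSO for 0 of the 30 at 6 h, and also for 0 at 24 h. The change differed between the arms in the negative direction for 20, a count that was 13 without replicate 1 of CSKi at 6 h and 10 without replicate 2 of DMSO at 24 h. UTP20, a part of the complex that processes ribosomal RNA, had 10.99 and 11.06 at 24 h, against 11.48 and 11.45 at 6 h, and fell by 0.44 ± 0.05 (limma, adjusted p = 2.84e-08). The 2 that rose were ODC1, the first enzyme of polyamine synthesis (0.35 ± 0.04), and MYC itself (0.23 ± 0.06), named as the other of the pair. MYC had 10.98 and 10.86 at 24 h, against 10.74 and 10.64 at 6 h, under CSKi, and 11.64 and 11.74 at 24 h, against 11.38 and 11.38 at 6 h, in DMSO.

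Of 31 nuclear genes of oxidative phosphorylation, 21 fell, 10 were not called and 0 rose under CSKi by limma, with a median of -0.16. Over all features 25% fell and 23.4% rose under CSKi. In DMSO 5 of the 31 rose and 2 fell by limma (20.5% and 20.7% of all features). Unlike in the ribosome list, the mean at 6 h was higher under CSKi than in DMSO for 28 of the 31. At 24 h it was higher for 4 of them. At an unadjusted p under 0.05 the count that rose under CSKi was also 0, and so was that by voom. Cytochrome c (CYCS) had 11.43 and 11.60 at 24 h, against 11.97 and 11.94 at 6 h, and fell by 0.44 ± 0.05 (limma, adjusted p = 1.62e-07). SDHB, the iron-sulfur subunit of complex II, had 11.40 and 11.33 at 24 h, against 11.70 and 11.69 at 6 h, and fell by 0.32 ± 0.05. These are changes of less than 1.5-fold, and for each gene both values at 24 h lay below both values at 6 h. Neither gene's difference in DMSO passed the test (0.05 with adjusted p = 0.495 for CYCS, and 0.09 with adjusted p = 0.137 for SDHB).

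**Figure D2:**
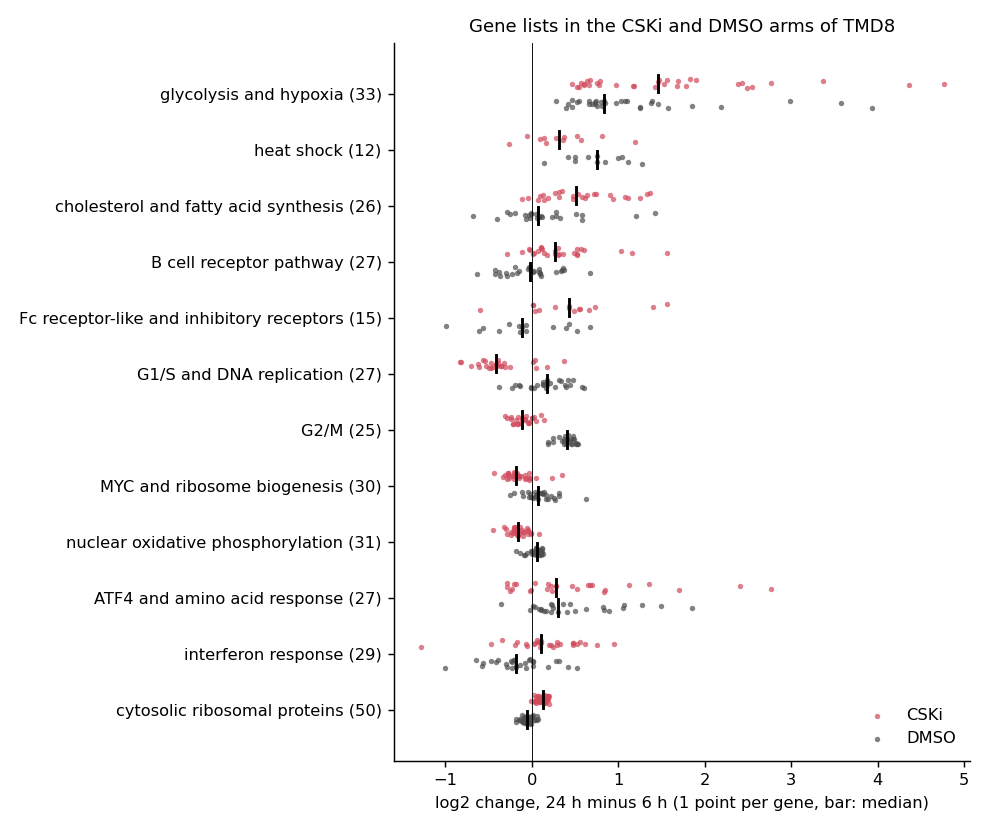
Each point is a gene, placed by its log2 change from 6 to 24 h under CSKi (red, upper row of each list) or in DMSO (grey, lower row), with the number of tested genes in brackets and the median as a black bar. Glycolysis and hypoxia genes lie above 0 in both arms (medians 1.46 and 0.84), G1/S genes have medians of -0.41 under CSKi and 0.17 in DMSO, and cholesterol genes have medians of 0.51 under CSKi and 0.07 in DMSO.

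Most genes of sterol synthesis rose under CSKi. Its genes are switched on together by SREBP-2 when membrane cholesterol is low, and those of fatty acid synthesis by SREBP-1. Of 26 tested genes 20 rose and 1 fell (FDPS, -0.12) under CSKi, with a median of 0.51 (23.4% and 25% of all features rose and fell). In DMSO 10 rose and 5 fell (20.5% and 20.7% of all features), with a median of 0.07. The change was larger under CSKi for 19 of the 26 (15.4% of all features). HMGCS1, which makes the precursor that HMG-CoA reductase uses, had 12.59 and 12.47 at 24 h, against 11.55 and 11.63 at 6 h, under CSKi and rose by 0.94 ± 0.06 (limma, adjusted p = 8.83e-13). In DMSO it had 12.27 and 12.08 at 24 h, against 12.10 and 12.09 at 6 h, which did not pass the test (0.09, adjusted p = 0.244). The sterol element TCACNCCAC, searched on both strands, was present in 1 of the 21 members with a RefSeq promoter (4.8%), against 1.1% of the 9392 promoters of tested genes. SCD, the desaturase that makes oleate, had 13.25 and 13.17 at 24 h, against 12.11 and 12.09 at 6 h, under CSKi, a rise of 1.11 ± 0.05.

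The levels show where these rises start. For 2 of the 26 genes the mean at 6 h was higher under CSKi than in DMSO, whereas for 20 of the 26 the mean at 24 h was higher under CSKi. HMGCS1 under CSKi had means of 12.81, 12.20, 11.59 and 12.53 at 1, 3, 6 and 24 h. In DMSO its means were 12.79, 12.38, 12.09 and 12.18 at the same times. Means were thus lower at each later time up to 6 h in both arms, with the lower values under CSKi at 3 and 6 h, and these earlier steps were not tested here.

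Most genes of B cell receptor signalling rose under CSKi, and genes for its brakes were among them. Of 27 tested, 19 rose (23.4% of all features did), 7 were not called and 1 fell under CSKi, with a median of 0.27. The 1 that fell was VAV2 (-0.29), and 3 fell with scaling to total mapped reads. In DMSO 8 rose and 11 fell (20.5% and 20.7% of all features), and the change was larger under CSKi for 22 (15.4%). PTPN6, which encodes the phosphatase SHP-1, had 14.08 and 14.05 at 24 h, against 12.91 and 12.89 at 6 h, under CSKi and rose by 1.16 ± 0.03 (limma, adjusted p = 1.01e-19). In DMSO it had 14.46 and 14.47 at 24 h, against 14.11 and 14.13 at 6 h. The 24 h level under CSKi was still below the vehicle levels at 24 and 6 h, and PTPN6 had means of 14.18, 13.31, 12.90 and 14.07 at 1, 3, 6 and 24 h under CSKi, and of 14.16, 14.06, 14.12 and 14.47 in DMSO.

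CD72, an inhibitory co-receptor that recruits SHP-1, had 13.00 and 12.98 at 24 h, against 11.40 and 11.45 at 6 h, under CSKi, a rise of 1.56 ± 0.04 (limma, adjusted p = 1.01e-19). Vehicle values of CD72 were 12.55 and 12.51 at 24 h, against 11.82 and 11.88 at 6 h. Unlike PTPN6, CD72 stood lower under CSKi at 6 h and higher under CSKi at 24 h. The adaptor BLNK, named after its values were seen, had 12.57 and 12.70 at 24 h, against 12.07 and 12.13 at 6 h, under CSKi, and 12.04 and 12.04 at 24 h, against 12.29 and 12.37 at 6 h, in DMSO. It rose under CSKi by 0.53 and fell in DMSO by 0.28, and so did the receptor chains CD79A (0.27 and -0.19) and CD79B (0.18 and -0.42), likewise named after the fact. The kinase BTK, at 0.08 under CSKi, did not pass the test.

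**Figure D3:**
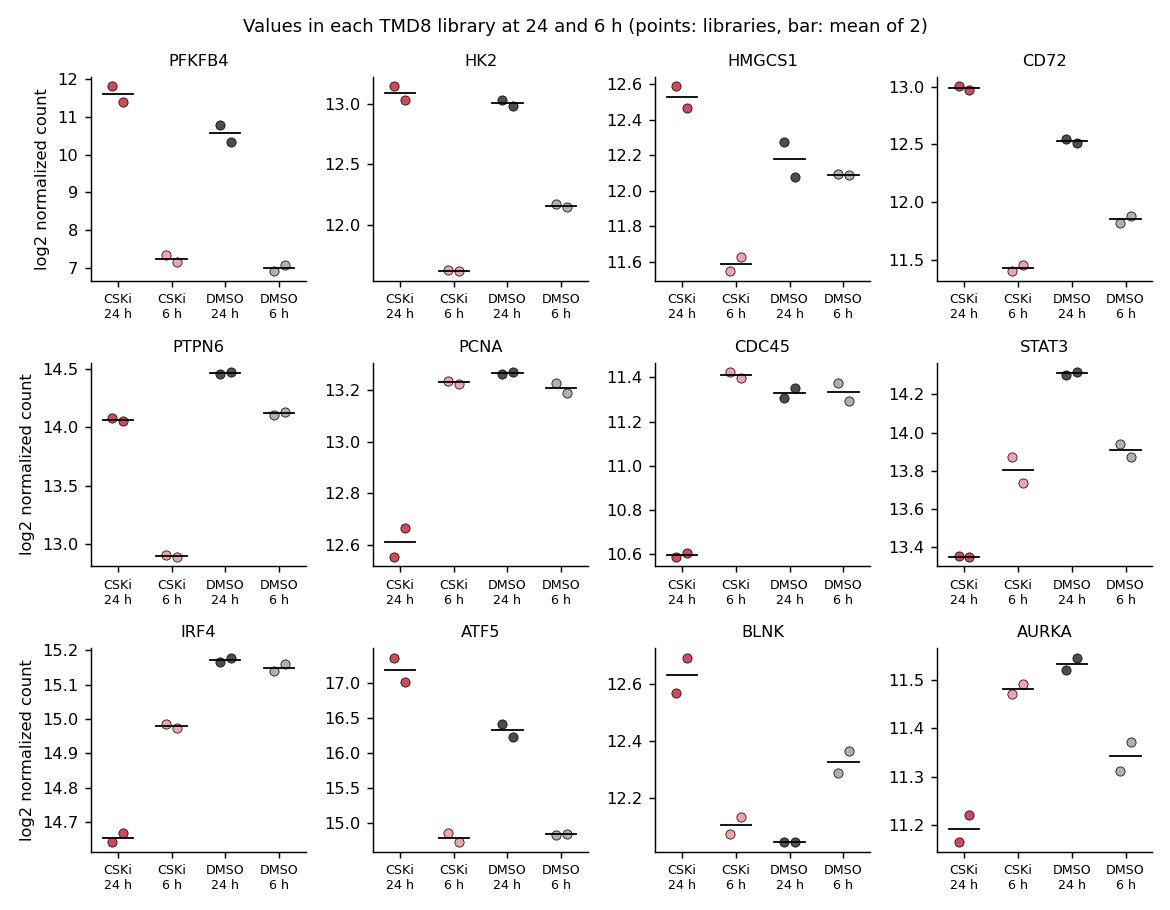
Log2 normalized counts of 12 genes are plotted in each TMD8 library at CSKi 24 h, CSKi 6 h, DMSO 24 h and DMSO 6 h, with the mean of 2 libraries as a bar. Axes differ between panels and do not start at 0. PCNA and CDC45 stand apart low in CSKi at 24 h, PTPN6 stands apart low in CSKi at 6 h, and PFKFB4 is high at 24 h in both arms.

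Most genes for surface receptors that restrain B cells rose. This list shares genes with others, so the counts are not independent. CD72 (1.56) was the largest rise here and in the lists of B cell receptor signalling and B cell activation genes. Of 15 Fc receptor-like and inhibitory receptor genes, 10 rose and 1 fell (SIGLEC10, -0.59) under CSKi, with a median of 0.43. In DMSO 5 of them rose and 8 fell. Over all features 23.4% rose and 25% fell under CSKi, against 20.5% and 20.7% in DMSO. FCRL5, a receptor for IgG on mature B cells, had 15.14 and 15.12 at 24 h, against 14.43 and 14.36 at 6 h, under CSKi and rose by 0.73 ± 0.04 (limma, adjusted p = 3.18e-14). Vehicle values of FCRL5 were 14.78 and 14.73 at 24 h, against 14.91 and 14.83 at 6 h. The intracellular relative FCRLA had 13.09 and 13.12 at 24 h, against 12.55 and 12.54 at 6 h, under CSKi. CD180, a receptor akin to the Toll-like receptors, rose by 1.43 ± 0.05 and the DNA sensor TLR9 by 0.67 ± 0.05. Of the 10 B cell identity genes 7 rose and 1 fell under CSKi, against 1 that rose and 6 that fell in DMSO, with the co-activator POU2AF1 at 0.91 ± 0.07 under CSKi.

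Transcription factors of the B lineage went different ways. SPIB, an Ets factor, had 15.87 and 15.74 at 24 h, against 14.75 and 14.74 at 6 h, under CSKi and rose by 1.06 ± 0.04 (limma, adjusted p = 1.53e-17). IRF4, on which lines of the activated type depend, had 14.64 and 14.67 at 24 h, against 14.98 and 14.97 at 6 h, under CSKi and fell by 0.32 ± 0.03 (limma, adjusted p = 1.06e-09). In DMSO IRF4 had 15.17 and 15.18 at 24 h, against 15.14 and 15.16 at 6 h. STAT3, which carries signals of IL-6 and IL-10, had 13.35 and 13.35 at 24 h, against 13.87 and 13.74 at 6 h, under CSKi, and 14.30 and 14.32 at 24 h, against 13.94 and 13.87 at 6 h, in DMSO. It fell by 0.45 ± 0.04 under CSKi and rose by 0.40 ± 0.04 in DMSO, and the difference of -0.86 was called (adjusted p = 4.16e-11). MEF2C, a factor of germinal centre B cells, fell in both arms, by 0.53 under CSKi and by 0.60 in DMSO.

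**Figure D4:**
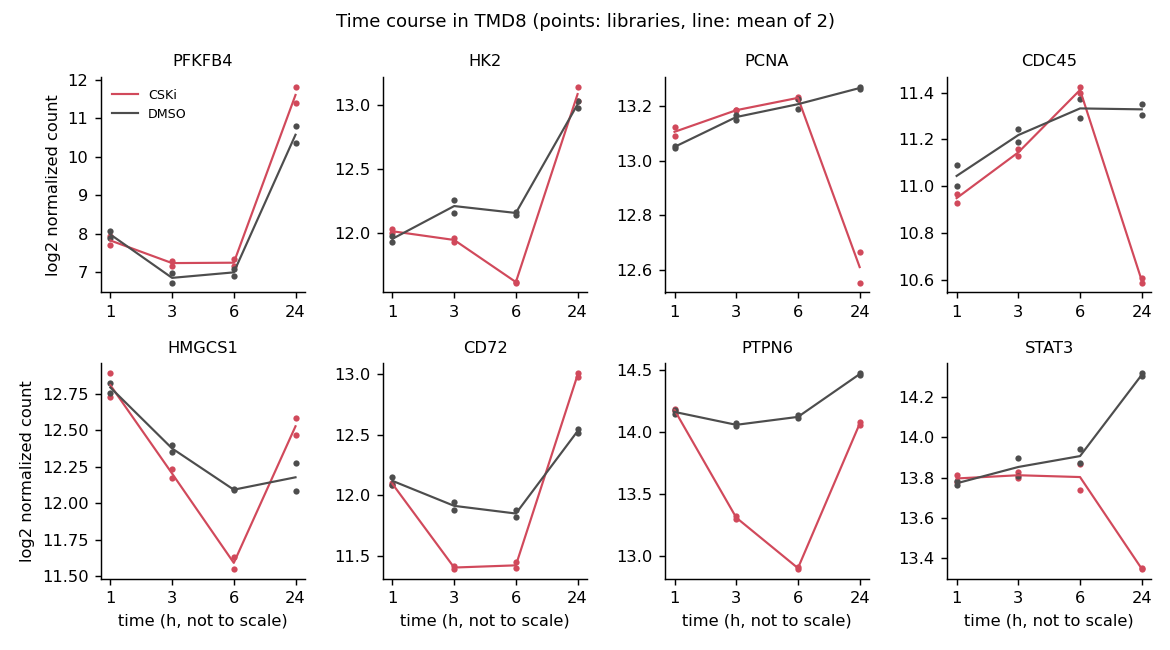
Log2 normalized counts of 8 genes in TMD8 at 1, 3, 6 and 24 h are plotted under CSKi (red) and in DMSO (grey), with points for libraries and lines through the mean of 2, on axes that differ between panels. PFKFB4 climbs after 6 h in both arms, PCNA, CDC45 and STAT3 drop after 6 h under CSKi, and HMGCS1, CD72 and PTPN6 dip at 3 or 6 h under CSKi and are higher again at 24 h.

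NF-kB targets had no common direction. Of 27 tested, 10 rose and 9 fell under CSKi, with a median of 0.03, and the change differed positively between the arms for 11 and negatively for 8 (5 without replicate 1 of CSKi at 6 h). The median was -0.03 with scaling to total mapped reads. Over all features, 23.4% rose and 25% fell under CSKi, and 15.4% and 13.9% had a positive and a negative difference between the arms. LTB, which encodes lymphotoxin beta, had 10.38 and 10.35 at 24 h, against 9.30 and 9.12 at 6 h, under CSKi and rose by 1.16 ± 0.08 (limma, adjusted p = 3.55e-12), while in DMSO it had 9.76 and 9.78 at 24 h, against 9.84 and 9.81 at 6 h. The chemokines CCL22 and CCL17, which draw CCR4-bearing T cells, fell under CSKi by 1.72 ± 0.17 and 1.49 ± 0.30. CCL22 had 5.75 and 5.32 at 24 h, against 7.20 and 7.30 at 6 h, under CSKi, and 5.63 and 6.28 at 24 h, against 7.65 and 7.57 at 6 h, in DMSO. For neither chemokine was the difference between the arms called (adjusted p = 0.873 for CCL22 and 0.825 for CCL17).

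Of 14 cytokine and chemokine genes, 10 rose and 3 fell under CSKi (23.4% and 25% of all features). IL10, an anti-inflammatory cytokine that such lines secrete, had 7.83 and 7.92 at 24 h, against 6.47 and 5.92 at 6 h, under CSKi, and 9.92 and 10.05 at 24 h, against 8.44 and 8.43 at 6 h, in DMSO. IL10 rose by 1.68 ± 0.15 under CSKi and by 1.55 ± 0.15 in DMSO, a difference that was not called (adjusted p = 0.687), and its values were lower under CSKi at both times. IL4I1, a secreted enzyme that breaks down aromatic amino acids, had 10.28 and 10.04 at 24 h, against 6.84 and 6.79 at 6 h, under CSKi, a rise of 3.35 ± 0.10. In DMSO it rose by 3.49, and the difference of -0.15 was not called (adjusted p = 0.465). EBI3, a subunit of IL-27 and IL-35, fell under CSKi (6.78 and 6.49 at 24 h, against 7.53 and 7.42 at 6 h) and rose in DMSO (8.28 and 8.31 at 24 h, against 7.67 and 7.51 at 6 h).

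Most genes of the heat shock and ATF4 lists rose in both arms. Over all features, 23.4% rose and 25% fell under CSKi, against 20.5% and 20.7% in DMSO. The difference between the arms was positive for 15.4% of all features and negative for 13.9%. Heat shock genes, the chaperones that HSF1 turns on, rose in 8 of 12 cases and fell in 1 under CSKi, with a median of 0.32, and rose in all 12 in DMSO, with a median of 0.76. The change was smaller under CSKi for 8 of the 12 and larger for 0 (0 also at an unadjusted p under 0.05 and by voom). The co-chaperone gene CHORDC1 had 10.04 and 10.38 at 24 h, against 9.32 and 9.47 at 6 h, under CSKi, and 10.64 and 10.72 at 24 h, against 9.51 and 9.62 at 6 h, in DMSO. Of 27 genes of the ATF4 and amino acid response, 17 rose and 6 fell under CSKi, with a median of 0.28, and 21 rose and 1 fell in DMSO, with a median of 0.31. The change was larger under CSKi for 7 of the 27 (4 without replicate 2 of CSKi at 6 h, replicate 2 of DMSO at 24 h or replicate 1 of DMSO at 6 h) and smaller for 9, so this list had no common direction of difference between the arms. ATF5, a factor of that response with a larger change under CSKi, had 17.37 and 17.02 at 24 h, against 14.85 and 14.71 at 6 h, under CSKi and rose by 2.41 ± 0.07 (limma, adjusted p = 1.48e-19), against a rise of 1.49 in DMSO. The 6 members that fell under CSKi were ASNS, MTHFD2, PSAT1 and the tRNA ligase genes MARS, WARS and GARS, at -0.29 to -0.18, and are named as a count of those that fell.

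More genes rose than fell under CSKi among immediate early genes, ERK feedback genes and FOXO targets. Over all features, 23.4% rose and 25% fell under CSKi, against 20.5% and 20.7% in DMSO. Of 16 immediate early genes, 9 rose and 0 fell under CSKi by limma, while 1 was lower at an unadjusted p under 0.05, 0 fell by voom, and 3 fell with scaling to total mapped reads. In DMSO 8 rose, and the median changes were 0.23 under CSKi and 0.27 in DMSO. IER2 had 10.26 and 10.16 at 24 h, against 9.37 and 9.35 at 6 h, under CSKi and rose by 0.85 ± 0.07 (limma, adjusted p = 6.21e-10). Of 6 ERK feedback genes 4 rose and 0 fell under CSKi by limma, by voom and at an unadjusted p under 0.05 (1 fell with scaling to total mapped reads), and all 6 rose in DMSO. DUSP5, a phosphatase that ERK induces and that inactivates ERK, had 12.99 and 12.88 at 24 h, against 12.14 and 12.12 at 6 h, under CSKi, and 12.22 and 12.16 at 24 h, against 12.04 and 11.98 at 6 h, in DMSO. Of 17 FOXO targets and quiescence genes 13 rose and 1 fell under CSKi, with a median of 0.48, against 7 that rose and 4 that fell in DMSO. The antiproliferative gene BTG1 had 13.18 and 13.16 at 24 h, against 12.52 and 12.40 at 6 h, under CSKi, and 12.43 and 12.32 at 24 h, against 12.42 and 12.43 at 6 h, in DMSO. CCNG2, an atypical cyclin that restrains proliferation, rose by 1.26 ± 0.12 under CSKi.

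HRK, a BH3-only member of the BCL2 family that promotes cell death, had 7.80 and 7.59 at 24 h, against 6.00 and 6.07 at 6 h, under CSKi, and 6.02 and 5.49 at 24 h, against 6.01 and 6.24 at 6 h, in DMSO. It rose by 1.66 ± 0.23 under CSKi (limma, adjusted p = 1.91e-06), and its change exceeded that in DMSO by 2.03 ± 0.33 (adjusted p = 3.30e-05). The survival gene BCL2 had 12.61 and 12.70 at 24 h, against 12.32 and 12.34 at 6 h, under CSKi and rose by 0.32 ± 0.04, while it fell in DMSO by 0.28. Of the 15 BCL2 family genes 6 rose and 4 fell, and the count that fell was 2 without replicate 2 of CSKi at 24 h or without replicate 1 at 6 h. Of 20 p53 targets 6 rose and 5 fell (3 without replicate 1 of CSKi at 24 h), close to the shares over all features (23.4% higher and 25% lower), with the cell cycle inhibitor CDKN1A at 0.58 ± 0.05 and BTG2 at 0.34 ± 0.03.

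Interferon response genes split. Of 29 tested, 10 rose and 4 fell under CSKi (23.4% and 25% of all features), against 5 that rose and 12 that fell in DMSO (20.5% and 20.7%). The change was larger under CSKi for 14 (15.4% of all features) and smaller for 0 by limma, by voom and at an unadjusted p under 0.05. The median difference was 0.22 with all libraries. It was 0.129 without replicate 1 of DMSO at 6 h and 0.325 without replicate 2 of DMSO at 6 h. In DMSO replicate 1 was above replicate 2 for 23 of the 29 genes at 24 h and for 25 at 6 h. OAS1, an antiviral enzyme that senses double-stranded RNA, had 12.31 and 12.33 at 24 h, against 11.78 and 11.62 at 6 h, under CSKi, and 10.95 and 10.94 at 24 h, against 11.28 and 11.21 at 6 h, in DMSO. IRF7, a factor that drives interferon genes, rose by 0.95 ± 0.07 under CSKi. The sharpest fall was that of IFI27 (-1.29), named after its values were seen, which fell in DMSO as well (-1.01). Of 16 MHC class II genes, 5 rose and 3 fell under CSKi, and 6 fell with scaling to total mapped reads. In DMSO 1 of the 16 rose and 11 fell. The change was larger under CSKi for 8 of the 16 and smaller for 0 by limma, by voom and at an unadjusted p under 0.05. Their master regulator CIITA had 11.69 and 11.41 at 24 h, against 10.24 and 10.23 at 6 h, under CSKi, and 11.44 and 11.43 at 24 h, against 11.17 and 11.09 at 6 h, in DMSO. HLA genes have near-identical copies, and reads of one can be counted for another.

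Cytosolic ribosomal protein genes were higher by a small amount that depends on scaling. Of 50 tested, 36 rose and 0 fell under CSKi with a median of 0.13 (0 fell by voom or at an unadjusted p under 0.05), but with quantile normalization 1 rose and 22 fell with a median of -0.06. RPL4 had 16.85 and 16.79 at 24 h, against 16.63 and 16.64 at 6 h, and its change was 0.18 ± 0.03 with the deposited scaling. Many ribosomal protein genes have processed pseudogenes that can share their reads. Among 16 translation factors 13 rose and 1 fell, counts that were 3 and 3 with quantile normalization. Shares over all features with the deposited scaling were 23.4% higher and 25% lower.

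The remaining groups described here concern cell shape, movement and the lysosome. Of 22 actin and adhesion genes 13 rose and 5 fell under CSKi (23.4% and 25% of all features). RAC2, the Rac GTPase of blood cells, had 14.82 and 14.77 at 24 h, against 14.06 and 13.99 at 6 h, and rose by 0.76 ± 0.04 (limma, adjusted p = 3.20e-15). Of 14 migration genes 9 rose and 0 fell (10 and 0 by voom or at an unadjusted p under 0.05), among them the chemokine receptor CXCR4, with 11.75 and 11.58 at 24 h, against 10.54 and 10.55 at 6 h. Of 27 lysosome and autophagy genes 9 rose and 6 fell, near the shares over all features (23.4% and 25%). The cysteine protease CTSH fell by 0.72 ± 0.05 while the cholesterol carrier NPC2 rose by 0.78 ± 0.08. MPEG1, a pore-forming protein of phagosomes, had 15.39 and 15.42 at 24 h, against 14.27 and 14.24 at 6 h, and rose by 1.15 ± 0.03 (limma, adjusted p = 5.00e-20).

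The other lists moved less evenly, and their counts are to be read against 23.4% of all features higher and 25% lower under CSKi. Of 12 Src family kinase and regulator genes 7 rose and 2 fell under CSKi, with the ubiquitin ligase CBL at 0.48 ± 0.05 and the phosphatase PTPRC (CD45), which removes the phosphate that CSK adds, at 0.30 ± 0.03. PTPRC had 14.59 and 14.64 at 24 h, against 14.33 and 14.30 at 6 h, under CSKi, and fell in DMSO by 0.16. Of 14 B cell activation genes 7 rose and 5 fell, with the BAFF and APRIL receptor TNFRSF13B at 0.78 ± 0.04. Of 18 genes that mark the activated B cell type 11 rose and 4 fell, with IL16 at 0.88 ± 0.04, and of 16 germinal centre genes 9 rose and 1 fell (MEF2C, above) under CSKi, and 9 rose and 1 fell in DMSO. Of 12 plasma cell differentiation genes 5 rose and 2 fell, and of 13 immunoglobulin and Toll-like receptor genes 6 rose and 2 fell. In the last of these lists the count that fell was 1 without replicate 2 of CSKi at 24 h or without either replicate at 6 h, and the median of 0.31 was 0.07 without replicate 2 at 24 h and 0.59 without replicate 1. Among 17 genes of the unfolded protein response 8 rose and 1 fell (3 fell with scaling to total mapped reads), with the degradation factor HERPUD1 at 0.79 ± 0.06 and the chaperone HSPA5 at 0.28 ± 0.03. Of 12 STAT3 and SOCS genes 5 rose and 3 fell, and of 15 MHC class I and antigen processing genes 12 rose and 2 fell, with HLA-E at 0.34 ± 0.04. Of 16 histone genes 7 rose and 3 fell (1 without replicate 2 of CSKi at 6 h), with HIST1H2BD (H2BC5) at 0.76 ± 0.06 and HIST1H2AC (H2AC6) at 0.45 ± 0.07, and near-identical histone copies can share reads.

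Outside these lists, the steepest rise was that of LRRC32, which encodes GARP, a cell surface protein that presents latent TGF-beta. It had 337 and 219 reads at 24 h, against 5 and 2 reads at 6 h, under CSKi, and the ratio of normalized counts was 110.5 (95% counting interval 53.3 to 276.2, which covers counting error only). FAM46C (TENT5C), a poly(A) polymerase of plasma cells and myeloma, had 177 and 114 reads at 24 h, against 3 and 8 reads at 6 h, a ratio of 36.8 (20.3 to 74.6). Both also rose in DMSO, LRRC32 by 4.95 and FAM46C by 4.36, and the difference between the arms was not called (adjusted p = 0.0861 and 0.191). PPFIA4, a liprin, rose by 4.56 ± 0.35, the neuritin gene NRN1 by 3.59 ± 0.13, LOC100130872 by 3.37 ± 0.33 and the EGF receptor ligand HBEGF by 3.23 ± 0.36.

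Among genes whose groups did not overlap, TNFRSF18, which encodes the co-stimulatory receptor GITR, fell the most, with 4.32 and 3.99 at 24 h, against 6.80 and 6.86 at 6 h, under CSKi, a fall of 2.67 ± 0.31 (limma, adjusted p = 1.03e-07). It fell in DMSO by 2.55 as well, and the difference was not called (adjusted p = 0.867). BAIAP2, an adaptor that bends membranes at actin protrusions, fell by 2.05 ± 0.26, the collagen receptor chain ITGA1 by 1.88 ± 0.17, C1orf186 (RHEX) by 1.69 ± 0.15 and the Rab5 regulator RIN2 by 1.59 ± 0.29. For these 4 the fall was larger under CSKi than in DMSO (differences of -1.15, -0.70, -0.91 and -1.28, adjusted p from 0.00268 to 0.0265). MYOM2 fell by 1.56, C7orf33 by 1.53 and IFT74, a part of the transport machinery of cilia, by 1.46, and none of the 3 had a called difference between the arms.

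The largest differences between the arms were ranked only among features called both under CSKi and in the difference. Features called in the difference but not under CSKi were left out. In the positive direction these were LOC100130872 (2.20), LOC100288986 (2.14), C19orf36 (2.04, now IZUMO4), HRK (2.03) and TNS1 (2.02). C19orf36 had 10.35 and 9.98 at 24 h, against 7.42 and 7.49 at 6 h, under CSKi, and 8.53 and 8.08 at 24 h, against 7.61 and 7.66 at 6 h, in DMSO. The difference of TNS1, a focal adhesion protein at low counts, was not called in 5 of the 8 fits that each left out 1 library. In the negative direction stood C11orf41 (-2.01, now KIAA1549L), EBI3 (-1.55), the ectoenzyme ENPP1 (-1.52), the growth arrest gene GADD45G (-1.45) and the transglutaminase TGM2 (-1.45). GADD45G had 6.85 and 6.90 at 24 h, against 8.09 and 8.16 at 6 h, under CSKi, and 8.42 and 7.95 at 24 h, against 8.01 and 7.96 at 6 h, in DMSO. The fall of ENPP1 under CSKi (-0.37) was -0.20 and no longer called without replicate 2 of CSKi at 24 h, nor was it called without replicate 1 (-0.33) or replicate 2 (-0.41) at 6 h, and that of TGM2 (-0.66) ranged from -0.92 to -0.41 with 1 library left out.

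Markers of T, NK and myeloid cells were mostly near 0, those of fibroblasts and epithelia less so, and a few markers moved. The 12 T and NK cell markers summed to normalized counts of 173.3 and 159.3 at 24 h, against 113.0 and 105.0 at 6 h, under CSKi, and 9 of them had at most 10 reads in every CSKi library. The 10 myeloid markers summed to 2623.0 and 2440.3 at 24 h, against 1965.6 and 1873.6 at 6 h, with FCGR3A and MPO at 0 reads and 8 of the 10 at no more than 10 reads in any CSKi library. The 11 fibroblast and epithelial markers summed to 5315.1 and 4928.6 at 24 h, against 4703.7 and 4343.4 at 6 h. KRT18 was at 0 reads, and 5 of the 11 had at most 10 reads in every CSKi library. The fibroblast and epithelial sum was mostly CDH1, which encodes E-cadherin, with 11.89 and 11.79 at 24 h, against 11.99 and 11.86 at 6 h, and its difference did not pass the test (-0.08, adjusted p = 0.188). The sums rested on few genes, and of those the macrophage marker CD68, also found in lysosomes of other cells, rose by 0.39 ± 0.05, the integrin chain ITGAM by 0.59 ± 0.20, the collagen genes COL1A1 by 1.24 ± 0.10 and COL1A2 by 1.34 ± 0.20, and the T cell marker CD8A by 0.73 ± 0.25. The calls of CD8A and ITGAM were lost with 1 library left out (replicate 1 of CSKi at 24 h, or replicate 1 at 6 h). The B cell identity genes summed to 150334.2 and 152845.7 at 24 h, against 121789.1 and 124305.5 at 6 h, far above those sums.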

How the data were processed

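Per the labels' protocols, RNA was purified on RNeasy columns and made into stranded mRNA libraries (TruSeq), read from both ends over 75 bases. Per the submitters' processing notes, reads were counted with HTSeq on hg19. The aligner, its version and the strand setting were not given in the sources used here, so overlapping and antisense genes are uncertain. The authors deposited log2 normalized counts, that is, counts times a library-specific factor on a log2 scale, where features without reads are listed at 0, as the values themselves show. When set against the worth of a single read, 99.6 to 100% of low values (up to 300 reads) in TMD8 were whole to within 0.1 reads. The row of total mapped reads was dropped. Of the features, 21304 matched a current symbol by gene ID.

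The deposited log2 values of the 16 TMD8 libraries were fitted as 8 group means by limma 3.58.1 in R 4.3.3, with eBayes(trend=TRUE), 8 residual degrees of freedom and two-sided tests. P-values were adjusted by Benjamini-Hochberg over 12113 features, and a feature was called at adjusted p under 0.05. Contrasts were CSKi 24 h minus 6 h, DMSO 24 h minus 6 h, and the difference of these. SE is that of the fit, with 2 libraries per group. Each change is on the log2 scale with no pseudocount. At 19.0 reads, the lowest mean tested, counting error alone is large. Steps were tested on simulated data. Tables and figures were made with pandas 2.3.3, scipy 1.17.1 and matplotlib 3.10.9 in Python 3.11.15.

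Named genes are up to 10 each way with the largest called change and groups that do not overlap, and CSK and LYN. Up to 5 each way were added with the largest difference between arms among features called in both that difference and the CSKi contrast. Up to 2 per list were added with the smallest p under CSKi. Other names are marked as chosen after values were seen. Members, the 38 lists and alternatives were chosen with earlier results of these data known. Alternatives were other filters, scalings, thresholds, variance models and sets of libraries, a replicate block, and leaving out each library. Voom on the recovered reads was added after the data were seen and called 2919 features higher and 2991 lower under CSKi. RefSeq promoters (GRCh38.p14) were used for sequence, and no coordinate was converted. A gene that the naming rule gives is not reported here.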

Additional observations from a re-analysis of the deposited data

Results flagged for a closer look

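Of the 99 genes that the naming rule gives, 77 changed by a different amount between 6 and 24 h under CSKi than in DMSO, by the limma test of the difference of the 2 changes with Benjamini-Hochberg adjustment over 12113 features (57 positive, 20 negative). Of all features, 15.4% had a positive and 13.9% a negative difference. The list members were picked for a small p under CSKi, and the genes with the largest difference were picked for it, so this share describes the choice as well. Values below are the CSKi change minus the DMSO change on the log2 scale, and no explanation was tested.

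Positive differences in metabolism were those of PFKFB4 (0.78), HK2 (0.62), SCD (0.53), HMGCS1 (0.85), ATF5 (0.92), SLC7A1 (0.47) and HERPUD1 (0.68). In B cell signalling and receptors they were those of CD72 (0.89), PTPN6 (0.82), LYN (0.22), CBL (0.23), PTPRC (0.46), TNFRSF13B (0.66), FCRL5 (0.85), FCRLA (0.69), CD180 (1.03) and TLR9 (0.52). In transcription and growth control they were those of SPIB (0.66), POU2AF1 (0.31), IER2 (0.49), JUND (0.67), DUSP5 (0.62), SPRED2 (0.57), BTG1 (0.76), BTG2 (0.75), CCNG2 (0.71), CDKN1A (0.30), BCL2 (0.60) and HRK (2.03). Immune genes with a positive difference included LTB (1.21), IL16 (0.68), MPEG1 (0.97), IRF7 (0.54), OAS1 (0.92), CIITA (1.01), HLA-DMA (0.84) and HLA-E (0.41). The others were RAC2 (0.51), CYFIP2 (0.96), CXCR4 (0.34), RGS19 (0.53), NPC2 (0.52), HIST1H2BD (0.46), HIST1H2AC (0.33), RPL4 (0.22), RPL10 (0.22), EEF2 (0.22), NRN1 (1.03), HBEGF (1.42), LOC100130872 (2.20), LOC100288986 (2.14), C19orf36 (2.04), TNS1 (2.02), CD68 (0.51), ITGAM (0.82) and COL1A1 (1.18).

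Negative differences in the cell cycle were those of PCNA (-0.68), CDC45L (-0.81), AURKA (-0.48) and KIF11 (-0.55). In ribosome building, translation and mitochondria they were those of UTP20 (-0.24), EIF4A2 (-0.17), CYCS (-0.49) and SDHB (-0.41). EIF4A2 rose under CSKi (0.36), by less than in DMSO. The remaining ones were IRF4 (-0.35), STAT3 (-0.86), EBI3 (-1.55), BAIAP2 (-1.15), ITGA1 (-0.70), C1orf186 (-0.91), RIN2 (-1.28), C11orf41 (-2.01), ENPP1 (-1.52), GADD45G (-1.45), TGM2 (-1.45) and CTSH (-0.44).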

How the results depend on the processing

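Counts under CSKi stayed within 1.5 times of 2840 higher and 3033 lower in every alternative run, from 2217 (all 32 libraries) to 2919 (voom) higher and from 2228 (only the 4 CSKi libraries) to 4004 (scaling to total mapped reads, which gave 2314 higher) lower. Positive differences between the arms numbered 1045 with all 32 libraries and 1220 at adjusted p under 0.01, against 1861, and negative ones 1103 at adjusted p under 0.01, against 1687. With 1 library left out, CSKi counts ranged from 2308 to 2810 higher and from 2326 to 3067 lower, DMSO counts from 1866 to 1922 and from 1837 to 1940, and differences from 1440 to 2150 positive and from 1287 to 2080 negative. A group left with 1 library takes its spread from the other groups. Same-numbered libraries deviated together with r from 0.037 to 0.157, highest between the arms at 24 h, and the labels tie the numbers to no shared batch or day, so the libraries were taken as unpaired. The replicate block gave 2847 higher and 3056 lower under CSKi, 2490 and 2525 in DMSO, and 1883 and 1706 differences. Of the single-gene values under alternatives, 2032 kept their direction and side of the threshold, 34 lost the call, 1 gained it (CSK) and 1 reversed, RPL10, at -0.033 with quantile normalization, and the cause was not tested. In the lists, the difference count of the ribosomal proteins was 38 positive and 14 with quantile normalization. Low counts limit genes such as TNS1, CD8A and ITGAM.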
